A study of Homo sapiens with 16 samples.

Results

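In TKO cells that express D1240A or F1295A, 1200 H3K27me3 peaks found in both plain TKO cells and cells expressing wild type NSD2 had no counterpart. H3K27me3 is the histone mark of Polycomb silencing. The 1200 regions were chosen as peaks of the WT list narrower than 30 kb that met a TKO peak by at least 1 bp and met no D1240A peak and no F1295A peak. They are 1200 of 3450 WT peaks under that width and of 3790 WT peaks in all. The regions were thus chosen by their measured H3K27me3 peaks, so the share of 34.8% and all H3K27me3 widths and signals below are a description and carry no test.

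The cells are TKO, a line that the labels call plasma cell with the genotype KMS-11 WHSC1(+/-). KMS-11 is a multiple myeloma line with the t(4;14) translocation, and WHSC1 is another name of NSD2. All groups share this genotype. The cells expressed NSD2 with D1240A, expressed NSD2 with F1295A, were plain TKO cells for which no form is named, or expressed wild type NSD2 (WT). The study asked how mutant NSD2 may alter chromatin marks. By ChIPmentation, H3K27me3 was profiled in 2 samples of a form and H3K4me3 in 1, among 16 samples in all, and IgG was not analysed here. All samples had the same formaldehyde and glycine treatment. The sources used here do not say which promoter or vector drove the forms or whether the cells were clones.

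The values are 8 deposited peak lists, a single list for each form and mark. Both H3K27me3 samples of a form stand in the same list, so no difference below has a replicate check, and read depth is unknown. Coordinates are GRCh38. Bracketed ranges after a share are 95% Clopper-Pearson limits for counting error only, and neighbouring peaks are not independent. At gene ends, 6 of 8 plasma cell markers had H3K4me3 in D1240A, 7 in F1295A, 5 in TKO and 7 in WT, whereas 0 of 8 T, NK and myeloid markers had it in any list.

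Polycomb repressive complex 2 trimethylates lysine 27 of histone H3 over silent genes and intergenic chromatin. NSD2 places methyl groups on lysine 36 of the same histone tail, and lysine 36 methylation hinders Polycomb activity on that tail. Cells with t(4;14) make much NSD2, and H3K27me3 is then known to be redistributed. The TKO cells here are WHSC1(+/-) and their NSD2 level was not measured in these data, so this need not hold for plain TKO. H3K4me3, the other mark measured, sits at active or poised gene starts.

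The promoters below have their annotated starts in regions missing in both mutants, and the upstream part of the L1CAM promoter runs past its region. They belong to genes of cell cycle control, adhesion and matrix. They are shown as examples and do not stand for the other promoters at missing regions, whose CG numbers follow the sequences. Each runs from 250 bases before to 50 bases after the annotated start, 5′ to 3′ on the gene's strand, from RefSeq on GRCh38.p14, with every CG pair in capitals. CG was the motif counted, and it reads the same on both strands.
CCND3 (chr6:42048639-42048938, minus strand): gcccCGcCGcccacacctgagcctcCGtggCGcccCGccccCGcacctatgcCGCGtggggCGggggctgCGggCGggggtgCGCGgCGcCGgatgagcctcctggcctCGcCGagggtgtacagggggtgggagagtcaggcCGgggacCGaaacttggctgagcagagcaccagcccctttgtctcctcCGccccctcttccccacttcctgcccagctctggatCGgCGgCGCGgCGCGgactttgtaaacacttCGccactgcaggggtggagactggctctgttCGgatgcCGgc
CDKN1A (chr6:36678464-36678763, plus strand): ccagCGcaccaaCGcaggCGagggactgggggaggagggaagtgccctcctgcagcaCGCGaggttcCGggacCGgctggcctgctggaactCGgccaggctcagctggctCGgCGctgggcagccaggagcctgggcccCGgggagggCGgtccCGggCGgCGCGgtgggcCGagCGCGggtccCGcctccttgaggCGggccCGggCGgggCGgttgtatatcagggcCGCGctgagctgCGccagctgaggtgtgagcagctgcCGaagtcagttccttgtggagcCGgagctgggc
MCAM (chr11:119317081-119317380, minus strand): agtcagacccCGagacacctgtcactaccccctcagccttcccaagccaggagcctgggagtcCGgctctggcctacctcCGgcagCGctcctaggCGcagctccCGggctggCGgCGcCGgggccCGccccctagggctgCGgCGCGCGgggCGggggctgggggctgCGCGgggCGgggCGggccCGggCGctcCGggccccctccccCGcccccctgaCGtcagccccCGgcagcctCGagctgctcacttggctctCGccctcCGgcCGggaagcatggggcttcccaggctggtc
L1CAM (chrX:153875895-153876194, minus strand): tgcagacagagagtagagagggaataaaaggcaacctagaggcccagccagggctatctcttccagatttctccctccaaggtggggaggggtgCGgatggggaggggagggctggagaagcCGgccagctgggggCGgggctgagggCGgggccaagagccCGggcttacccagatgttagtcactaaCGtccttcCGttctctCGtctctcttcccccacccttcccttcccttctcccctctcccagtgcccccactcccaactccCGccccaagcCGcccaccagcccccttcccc
TNXB (chr6:32109289-32109588, minus strand): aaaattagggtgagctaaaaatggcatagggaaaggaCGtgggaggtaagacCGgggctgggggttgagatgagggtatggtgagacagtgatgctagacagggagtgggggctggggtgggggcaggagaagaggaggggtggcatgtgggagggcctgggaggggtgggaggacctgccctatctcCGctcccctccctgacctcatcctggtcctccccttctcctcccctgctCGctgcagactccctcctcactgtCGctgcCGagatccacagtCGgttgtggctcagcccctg
CCND3, CDKN1A and MCAM hold 29 CG pairs each, a number that 69.8% of the 15812 protein-coding promoters in the table reach or stay below. L1CAM holds 10 and TNXB 7, which 28.6% and 23.6% of these promoters reach or stay below. Over the 183 promoters at missing regions, the median was 15 CG pairs, with the middle 50% between 6 and 29. It was 16 for 366 promoters at shared peaks, 21 for 89 at peaks in WT alone and 22 for all 15812. This is a description without a test, and it leaves out genes without a promoter in the table. Of the 449 genes at the regions, 331 (73.7%) have one.

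The regions were narrow and weak within the WT list. Their median width was 7.12 kb (range 2.33 to 26.9 kb), against 13.8 kb for the 1348 WT peaks under 30 kb that met peaks of all other forms. Highest signal, the authors' peak height on a scale that is not given, had a median of 71 in the missing regions and 119 in the shared peaks. Ranked within the WT list from weakest to strongest, the median missing region had a percentile of 29.2 by highest signal and 26.9 by total signal, the sum over the peak. For shared peaks the percentiles were 68.5 and 70.5. The 397 WT peaks under 30 kb that met no other list were also narrow and weak. Their median width was 6698 bp and their median highest signal 68. Their percentiles were 25.6 by highest signal and 21.3 by total signal. Small width and low signal were thus not particular to the missing regions. In TKO the peak over a missing region had a median highest signal of 57.5 and a percentile of 41.4 in the TKO list, and the peak over a shared region one of 79.1. Whole H3K27me3 lists differed in median highest signal, with 108.5 in D1240A, 96 in F1295A, 63 in TKO and 92 in WT. No common scale is known for the lists, so heights of either mark printed below do not measure a difference between forms.

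With WT peaks under 30 kb in 4 equal groups by highest signal, the missing regions made up 56.4% (53.0 to 59.8) of the weakest group, then 44.2%, 27.1% and 11.4% (9.32 to 13.7) of the strongest. The shared peaks ran the other way, with 8.69% of the weakest group and 75.1% of the strongest. Width gave the same order, from 54.9% of the narrowest group to 7.42% of the widest.

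**Figure D1:**
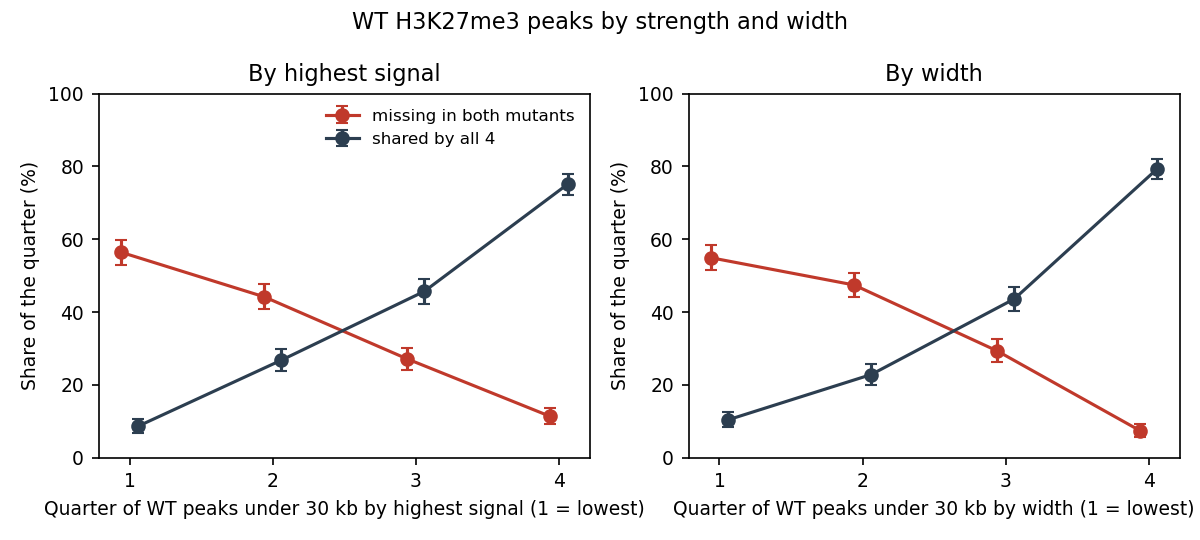
Share of WT H3K27me3 peaks under 30 kb (vertical axis, %) that were missing in both mutants (red) or shared by all 4 forms (dark), in 4 equal groups by highest signal (left) and width (right), lowest group first; bars are exact 95% intervals. The missing share falls at each step, to 11.4% of the strongest and 7.42% of the widest group.

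The mutant lists were also shorter and began at higher signal. D1240A had 2188 peaks, F1295A 2083, TKO 5881 and WT 3790. The mean signal below which 1% of a list's peaks fell was 19.1 in D1240A, 18.4 in F1295A, 9.45 in TKO and 10.3 in WT. Taken at face value, 640 of the 1200 missing regions (53.3%) had a WT mean signal at or above both mutant values, as did 77.1% of the other WT peaks under 30 kb. By highest signal, 1175 of the 1200 (97.9%) were at or above the lowest peak of both mutant lists. That lowest peak was 38.5 in D1240A and 39.5 in F1295A, and it is a list's minimum and not its 1% point. When every H3K27me3 list was brought to its 2083 strongest peaks by total signal, 53 WT peaks met the rule, of which 50 are among the 1200. Of the 1200, 252 stayed in the cut WT list. The cut adds no mutant peaks, so no region left the rule by meeting a mutant peak. Those of the 252 that left it no longer met a peak of the shortened TKO list. The same rule turned round, for D1240A peaks that met F1295A and neither WT nor TKO, gave 0 of 2009 D1240A peaks under 30 kb with whole lists and 43 of 1904 at equal lengths, against 53 of 1743 for WT. Ranked by highest signal, a choice made after seeing the data, the counts were 121 of 1904 for D1240A and 153 of 1750 for WT. The part that depth or threshold of the lists plays in the 1200 was not tested further.

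At the edges of the rule, the widest missing region was 26.9 kb, and 0 regions of 30 kb or more met the other conditions. A member on chromosome 19 (chr19:47955142-47957813) had a D1240A peak directly at its border, with 0 bp between them. The smallest mutant overlap that kept a WT peak out was 10 bp, and 4 of the 1839 peaks kept out had less than 500 bp. The smallest overlap with TKO inside the rule was 188 bp, at DLX2, and it was the single one under 500 bp. TKO peaks covered a median of 90.2% of a missing region and at least 50% of 1115 of them.

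Missing regions lay both beside and far from the H3K27me3 peaks that the mutants had. The median distance to the nearest mutant peak was 42.3 kb, with the middle 50% between 10.8 and 204 kb. A mutant peak stood within 10 kb of 281 regions (23.4%), of which 210 were near a D1240A peak, 254 near an F1295A peak and 183 near both. A further 428 regions (35.7%) had none within 100 kb. Of the 281 near ones, 52 were met by a TKO peak that itself met a mutant peak, and of the 428 distant ones 0 were. The 397 WT peaks that met no other list lay farther out, at a median of 79.2 kb, with 15.1% within 10 kb.

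Near and distant regions were alike in width, with medians of 7.12 and 6.84 kb, while median highest signal was 83 in the near and 69.5 in the distant ones. A gene end lay within 1 kb of 25.6% (20.6 to 31.1) of the near regions and of 35.3% (30.8 to 40.0) of the distant ones. These intervals overlap slightly, and no test beyond them was made.

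**Figure D2:**
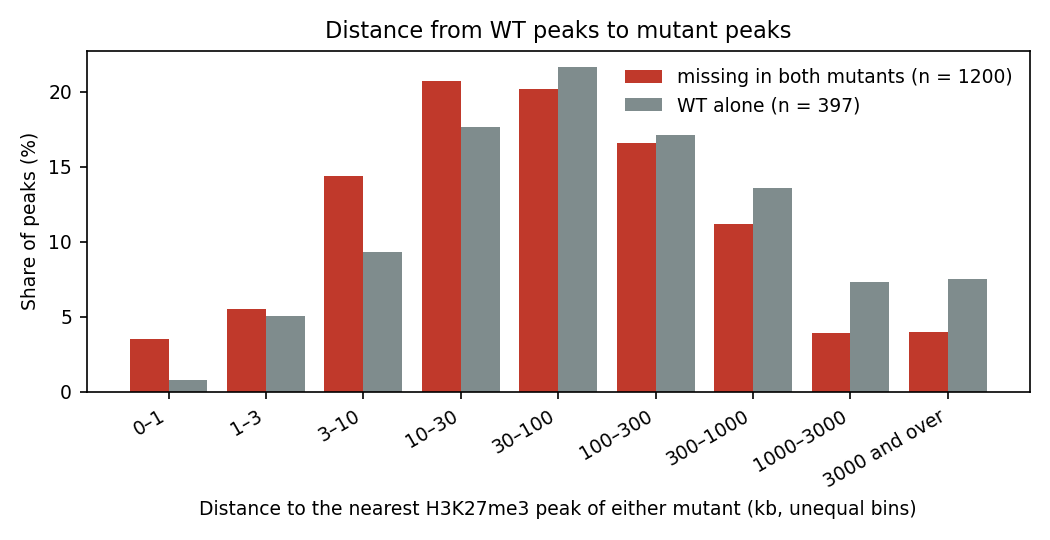
Distance in kb, in unequal bins (horizontal axis), from WT H3K27me3 peaks to the nearest H3K27me3 peak of either mutant, as a share of peaks (vertical axis, %), for the 1200 missing regions (red) and the 397 peaks in WT alone (grey). The missing regions have more peaks than WT alone in the 4 bins up to 30 kb, and fewer in every bin from 30 kb on.

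All of chromosomes 1 to 22 and X held missing regions. Their share of WT peaks under 30 kb was 25.8% on chromosome 10, 26.0% on chromosome 16, 41.96% on chromosome 6 and 64.7% (38.3 to 85.8) on chromosome 13, where WT had 17 peaks in all, D1240A 3 and F1295A 3.

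Most missing regions were away from gene ends, although 724 of the 1200 (60.3%) met a protein-coding record. A gene end lay within 1 kb of 384 of the 1200 (32.0%, 29.4 to 34.7), against 45.3% (42.6 to 48.0) of shared peaks and 39% of all WT peaks under 30 kb. The missing regions were narrower, and with peaks of like width the shares came closer. From the narrowest to the widest of 4 width groups, 27.4%, 30.1%, 37.5% and 56.3% (43.3 to 68.6) of missing regions had a gene end, against 21.1%, 34.5%, 42.8% and 52.8% (49.0 to 56.6) of shared peaks. The missing regions were higher in the narrowest and widest groups and lower in the middle ones, with overlapping intervals in each. From the weakest to the strongest of 4 groups by highest signal, the shares were 26.5%, 31.8%, 41.03% and 38.8% (29.1 to 49.2) in missing regions, against 18.7%, 27.7%, 37.1% and 59.6% (55.7 to 63.4) in shared peaks. The missing regions were lower in the strongest group, where the intervals did not overlap, and higher in the other 3, where they did. By centre, 8.25% of missing regions lay within 1 kb of a gene end, 46.6% inside a gene record and 45.2% elsewhere. In 476 regions there was no protein-coding record, and 148 of these met a long noncoding RNA record.

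The 384 regions at gene ends reached 449 protein-coding genes, 2.25% of 19974, and 67 of them reached more than 1 gene. Of the 331 genes with an annotated start, 177 (53.5%) had it inside the region and 208 (62.8%) inside or within 1 kb. At the other genes the region lay at an end of the record more than 1 kb from that start. In 50 of the 449 (11.1%) a mutant still had an H3K27me3 peak at a gene end, outside the missing region. NFASC, ITGA3, LAMC3 and TNXB were of this kind, with H3K27me3 at a gene end in every form. At genes such as CCND1, NOTCH1, DLX2, SPIB and LY6E, no TKO peak came within 1 kb of a gene end. There the TKO peak met the region only, and WT alone had H3K27me3 at a gene end.

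Of the 24 cell cycle genes, 5 had H3K27me3 at a gene end in WT. A gene end of 4 lay at a missing region, against 2.25% of all genes. These 4 were the D-type cyclin genes CCND1 and CCND3, the CDK inhibitor gene CDKN1A and MYC, the gene of a transcription factor that drives growth. CCND1 lay under a region of 13.7 kb (chr11:69640201-69653884) that covered 95.6% of its record, with a highest signal of 60 in TKO and 129 in WT. The nearest mutant H3K27me3 peaks were 142 kb away in D1240A and 67.1 kb in F1295A. CDKN1A, which encodes the p21 inhibitor, had its start in a region of 5.97 kb (chr6:36675429-36681396) with 96 in TKO and 120.5 in WT, and mutant peaks stood 15.8 kb (D1240A) and 15.3 kb (F1295A) away. At CCND3 a region of 5.15 kb (chr6:42045217-42050367) covered the start whose promoter is printed above, with 48 in TKO and 108.5 in WT. MYC lay in a region of 4.63 kb (chr8:127735030-127739659), with 59 in TKO and 129.5 in WT, and had the most distant mutant peaks of the 4 genes, 13294 kb away in D1240A and 8519 kb in F1295A. MYC was the single one of the 4 whose region met H3K4me3, and it did so in every form, with a highest H3K4me3 signal of 347 in D1240A, 436 in F1295A, 187 in TKO and 319 in WT. By highest signal the 4 regions had percentiles between 62.4 and 73.4 in the WT list. At equal list lengths 0 of the 4 remained by total signal, and CDKN1A remained by highest signal. Those that dropped out lost their WT or TKO peak from the shortened lists and were not met by a mutant peak.

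Notch genes had 4 of 18 at missing regions (22.2%, against 2.25% of all genes), and 7 of the 18 had H3K27me3 at a gene end in every form. Only genes with H3K27me3 in WT can be at a missing region. That held for 11 of the 18 Notch genes and for 1911 of all 19974 genes. Among genes so marked, 4 of 11 Notch genes were at missing regions, against 449 of 1911. The region at NOTCH1 (chr9:136546165-136558063) began 0.117 kb upstream of the receptor gene's annotated start and had a highest signal of 35 in TKO and 83.5 in WT. It overlapped an H3K4me3 peak at the gene start in all 4 forms, with a highest signal of 264 in D1240A, 423 in F1295A, 133 in TKO and 229 in WT. The ligand gene DLL3 lay to 76.3% under a region of 11.5 kb with 55 in TKO and 137 in WT. DLL1, another ligand gene, had a region beside its record with 61.5 in TKO and 96.5 in WT. HEYL, a transcriptional repressor gene of the pathway, had its start in a weak region with 40.5 in both TKO and WT. None of these 4 remained at equal list lengths under either ranking, again through the WT or TKO list and without a mutant peak meeting them.

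Immunoglobulin-type adhesion genes had 4 of 44 at missing regions. L1CAM, which encodes a neural adhesion molecule, lay under an 18.7 kb region (chrX:153857399-153876050) that covered its start and 58.9% of its record, with 69 in TKO and 109 in WT, and the nearest mutant peaks were 215 kb away in D1240A and 213 kb in F1295A. MCAM, the gene of the melanoma adhesion molecule CD146, had its start in a region of 5.88 kb with 41 in TKO and 100.5 in WT and mutant peaks 422 kb away. At NFASC, the neurofascin gene, the values were 41 in TKO and 58 in WT. F11R, the gene of the junctional molecule JAM-A, had 50 in TKO and 69 in WT, and its region met H3K4me3 in F1295A (400) and WT (371) and no H3K4me3 peak in D1240A or TKO. L1CAM remained at equal list lengths by total signal.

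Of the other adhesion lists, 1 of 26 integrin genes (ITGA3) and 1 of 52 cadherin genes (CDH4) met a missing region, near the share of all genes. CDH4 met it at the lower end of its record, 243 kb from the start in the promoter table. Matrix genes had 5 of 67. At TNXB, which encodes tenascin-X, the region (chr6:32105392-32111174) held the annotated start printed above, with 49 in TKO and 75.5 in WT. TNXB has a near-identical partial copy next to it, so reads there may be split. ACAN, COL11A2 and LAMB3 had their annotated starts 65.2, 23.6 and 24.6 kb away from the regions, which lay at the far end of these genes. Of 71 axon guidance genes 4 met a missing region, namely EFNA3, SEMA3G, SEMA7A and SLIT1, each with its start inside. SLIT1, a secreted guidance factor gene, had one of the weakest regions of the list (33.5 in TKO and 39.5 in WT) and met H3K4me3 in all 4 forms.

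Developmental factor genes had 6 of 108 at missing regions, and 18 of the list kept H3K27me3 at a gene end in every form. DLX1 and DLX2, neighbouring homeobox genes of forebrain and craniofacial development, each had a region of their own. The DLX1 region (chr2:172083789-172089032) had 47.5 in TKO and 79 in WT, and the DLX2 region (chr2:172091468-172103381) had 100.5 in WT and touched the same TKO peak by 188 bp. D1240A had its nearest H3K27me3 peak 2719 kb and F1295A 13331 kb from DLX1. The DLX2 region met H3K4me3 in every form, but the highest signals belong to different peaks. Those of 242 in D1240A, 117 in TKO and 216 in WT are of a peak between DLX1 and DLX2. The 356 in F1295A is of a separate peak of 4.61 kb over DLX2 itself. Within 1 kb of a DLX2 gene end, F1295A and TKO had H3K4me3, and D1240A and WT had none. NEUROG3, the endocrine pancreas factor gene, had 40 in TKO and 100 in WT, LHX9 had 56.5 in TKO and 78 in WT, and TAL1, a blood stem cell factor gene, had 44 in TKO and 63.5 in WT. Of 39 HOX genes 0 met a missing region and 12 had H3K27me3 in every form.

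Of 32 T, NK and myeloid genes 4 met missing regions. Among them CSF3R, the G-CSF receptor gene, had 57 in TKO and 55.5 in WT, PRF1, the perforin gene, 55.5 in TKO and 49.5 in WT, and TBX21, the gene of T-bet, 43.5 in TKO and 66.5 in WT. The annotated starts of PRF1 and TBX21 lay 6.02 and 8.68 kb from their regions. CSF3R remained at equal list lengths by total signal. Of 35 B cell genes 1, SPIB, met a missing region, with its annotated start 12.3 kb from the region, which touched the far end of the record. Keratin genes had 5 of 47, among them KRT9 with 72 in TKO and 104 in WT, and TNF family genes 2 of 45, LTBR and TNFRSF8. WNT genes (SFRP5, 1 of 39) and potassium channel genes (KCNH3, 1 of 40) were near the share of all genes. Of 21 plasma cell genes and 20 housekeeping genes, 0 met a missing region. In all, 43 of 723 listed genes did, against 449 of 19974 genes (2.25%). Genes without H3K27me3 in WT cannot be counted, and 1911 of all 19974 genes had it. The lists differ in this, from 0 of 20 housekeeping genes to 11 of 18 Notch genes. WT had H3K27me3 at 15 of 44 immunoglobulin-type adhesion, 22 of 67 matrix, 24 of 71 axon guidance and 24 of 108 developmental factor genes. It also had it at 9 of 32 T, NK and myeloid, 8 of 35 B cell, 20 of 47 keratin, 10 of 45 TNF family and 13 of 39 HOX genes. The list counts are not corrected for it and are not read as an excess.

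**Figure D3:**
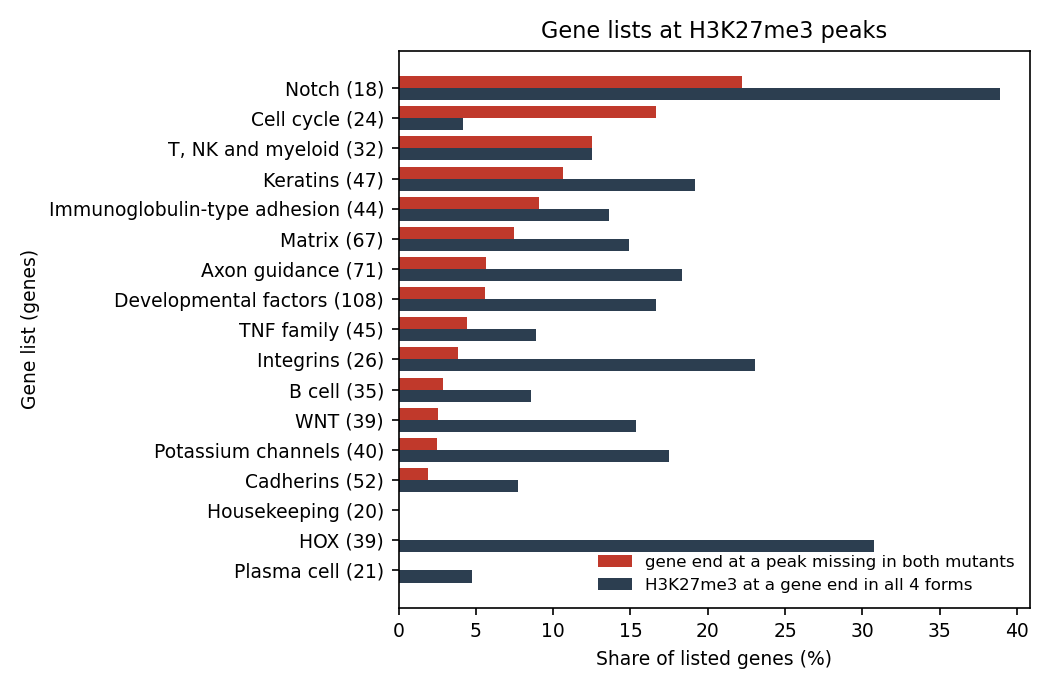
Share of the genes of each list (horizontal axis, %; list size in parentheses) with a gene end at a region missing in both mutants (red) and with H3K27me3 at a gene end in all 4 forms (dark). Notch genes (22.2%) and cell cycle genes (4 of 24) have the highest red bars, and HOX, plasma cell and housekeeping genes have none.

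The highest signal of all missing regions, 1084 in WT, was in a region of 6.34 kb inside the LY6S record on chromosome 8, with no gene end and a mutant peak 1.85 kb away. EFNA3, which encodes an ephrin ligand, had 348.5 in TKO and 670.5 in WT over a 15.4 kb region (chr1:155070767-155086203), a percentile of 99.7 in both lists. C2CD4D and THEM5 lay whole under a region of 26.1 kb (chr1:151836070-151862162) with 226 in TKO and 352 in WT, and LINGO4 lay whole under a region of 11.7 kb with 229 in TKO and 272 in WT. These 3 regions are on the long arm of chromosome 1. In D1240A the nearest H3K27me3 peaks were 15.7 kb (EFNA3), 78.1 kb (C2CD4D) and 62.8 kb (LINGO4) away, and in F1295A 15.04, 76.6 and 54.4 kb.

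The region with the highest total signal ended 0.005 kb short of PPDPF's annotated start (chr20:63501516-63520736), and its total of 6.96e+06 over 19.2 kb gives a mean of 362 per base, above its own highest signal of 227.5. Such a mean cannot come from a single track. It occurred in 5 of the 1200 regions, in 3 of the 1348 shared peaks and in 11 WT peaks in all, and rankings by total signal carry this limit.

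With every list at 2083 peaks, 13 genes at 9 regions kept their place under both rankings, a set picked after the values were seen. Among them are EFNA3, C2CD4D, THEM5, LINGO4, BATF2, GSDMA, IGFBP2, IGFBP5, SLC22A6, SLC22A8, SMARCD3 and TRPM2. BATF2, a basic leucine zipper factor gene, lay whole under its region (chr11:64987680-64997970) with 114.5 in TKO and 131 in WT. The insulin-like growth factor binding protein genes IGFBP2 and IGFBP5 shared a region of 17.5 kb (chr2:216662704-216680243) with 96.5 in both TKO and WT, and mutant peaks were 1229 kb (D1240A) and 1230.2 kb (F1295A) away. SLC22A6 and SLC22A8, organic anion transporter genes, shared 18.2 kb (chr11:62979051-62997219) with 79.5 in TKO and 116 in WT. GSDMA, a gasdermin gene, had 82.5 in TKO and 114 in WT, SMARCD3, a chromatin remodelling subunit gene, 202 in TKO and 183.5 in WT, and TRPM2, a cation channel gene, 119.5 in TKO and 93.5 in WT. Of these 9 regions, the one at EFNA3 met H3K4me3 and the other 8 met none in any form.

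H3K4me3 comes from other libraries than the rule used, and it was rare in the missing regions in every form. An H3K4me3 peak met 31 of the 1200 in D1240A (2.58%, 1.76 to 3.65), 43 in F1295A (3.58%, 2.61 to 4.80), 24 in TKO (2.00%, 1.29 to 2.96) and 39 in WT (3.25%, 2.32 to 4.42). Over all WT peaks under 30 kb the shares were 3.57% in D1240A, 4.72% in F1295A, 2.35% in TKO and 3.94% in WT. For the shared peaks they were 3.78% in D1240A, 4.67% in F1295A, 2.00% in TKO and 3.71% in WT. F1295A had the highest and TKO the lowest share in both classes, and the intervals of both classes overlapped in each form. The shared peaks were wider, and per Mb of peak the counts were 3.33 in missing and 2.57 in shared peaks for D1240A and 4.18 and 2.52 for WT. In 49 missing regions at least 1 form had H3K4me3, and in 23 all 4 forms did.

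**Figure D4:**
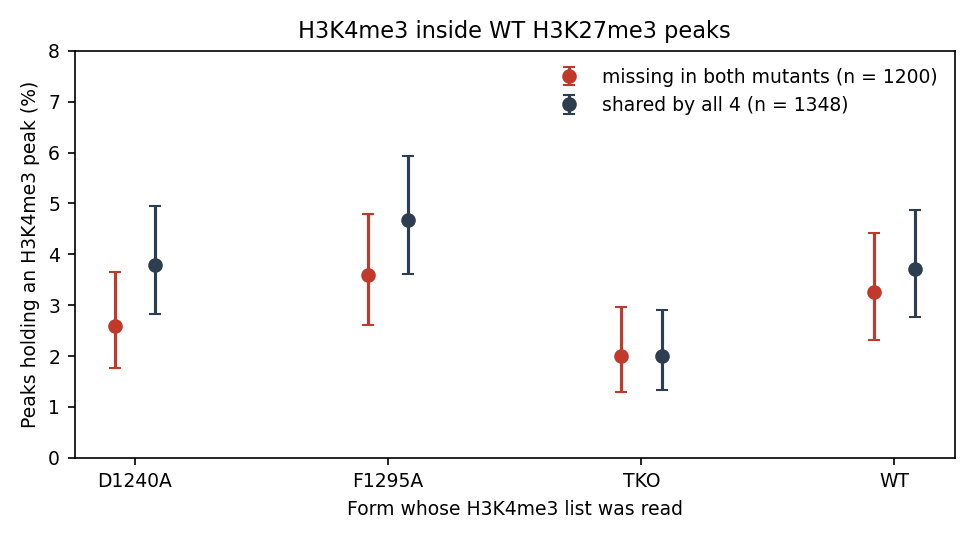
Share of H3K27me3 peaks of WT (vertical axis, %) that meet an H3K4me3 peak of the form named on the horizontal axis, for the 1200 missing regions (red) and the 1348 shared peaks (dark); bars are exact 95% intervals. Values lie between 2.00% and 4.67%, and the intervals of both classes overlap in every form.

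Few of the regions met H3K4me3 in a mutant and not in WT. In D1240A this was so at 2 of the 1200 (0.167%), against 0.406% of all WT peaks under 30 kb, and in F1295A at 9 (0.75%), against 1.13%. In the other direction 10 regions (0.833%) had H3K4me3 in WT and not D1240A, against 0.783%, and 5 (0.417%) in WT and not F1295A, against 0.348%. For TKO, 0 of 1200 had it in TKO and not WT (up to 0.307% by the exact interval, against 0.058%), and 15 (1.25%) in WT and not TKO, against 1.65%. The differing counts are small, and each H3K4me3 list is 1 library.

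Most genes at missing regions had no H3K4me3 at a gene end. Of the 449 genes at missing regions, 63 had it in D1240A (14.03%), 81 in F1295A (18.0%), 56 in TKO (12.5%) and 71 in WT (15.8%), while of all genes 41.6% had it in D1240A, 44.5% in F1295A, 39.9% in TKO and 43.6% in WT. Genes at shared peaks had shares of 15.9%, 18.9%, 12.03% and 16.4% in the same order of forms. In D1240A and not WT it was found at 0 of the 449 (up to 0.818%), against 0.285% of all genes, and in F1295A and not WT at 11 (2.45%, 1.23 to 4.34), against 1.59%. In WT and not D1240A it was found at 8 (1.78%), against 2.3%, and in WT and not F1295A at 1 (0.223%), against 0.716%. In TKO and not WT it was found at 1 (0.223%), against 0.325%, and in WT and not TKO at 16 (3.56%), against 4.09%. Each of these 6 shares has an interval that holds the share of all genes.

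The regions with H3K4me3 in F1295A and not WT included the 6.26 kb region of the gonadotropin subunit genes LHB and CGB3 (chr19:49016625-49022885), where the F1295A peak was 4.48 kb wide with a highest signal of 154, a percentile of 0.765 in that list. CGB3 belongs to a cluster of near-identical copies, so its reads may be split. At SCRT1, a neuronal repressor gene, the F1295A peak was 15.4 kb wide with 334 (percentile 20.3), and at GLS2, a mitochondrial glutaminase gene, 5.48 kb with 311 (percentile 16.3). GLS2 and UAP1L1 had H3K4me3 within 1 kb of a gene end in every form, outside the region in D1240A, TKO and WT. LY6E (215), UAP1L1 (266) and WASHC1 (315), the last of a multicopy subtelomeric family, were the others at gene ends. These H3K4me3 peaks stood in the lower part of the F1295A list, at percentiles of 0.765 to 20.3.

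EFNA3 was the opposite case, with both marks in TKO and WT and neither in the mutants. The H3K4me3 peak that met its region was 3.01 kb wide with 636 in TKO and 10.5 kb wide with 1351 in WT, percentiles of 98.7 in TKO and 98.9 in WT. Around the region, TKO and WT had another H3K4me3 peak at the start of the neighbouring EFNA4, where D1240A and F1295A had none. At ADAM15, the next gene, all 4 forms had H3K4me3. In all, 4 regions had H3K4me3 in WT and in neither mutant, and those at gene ends were EFNA3 and LOC102724117.

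**Figure D5:**
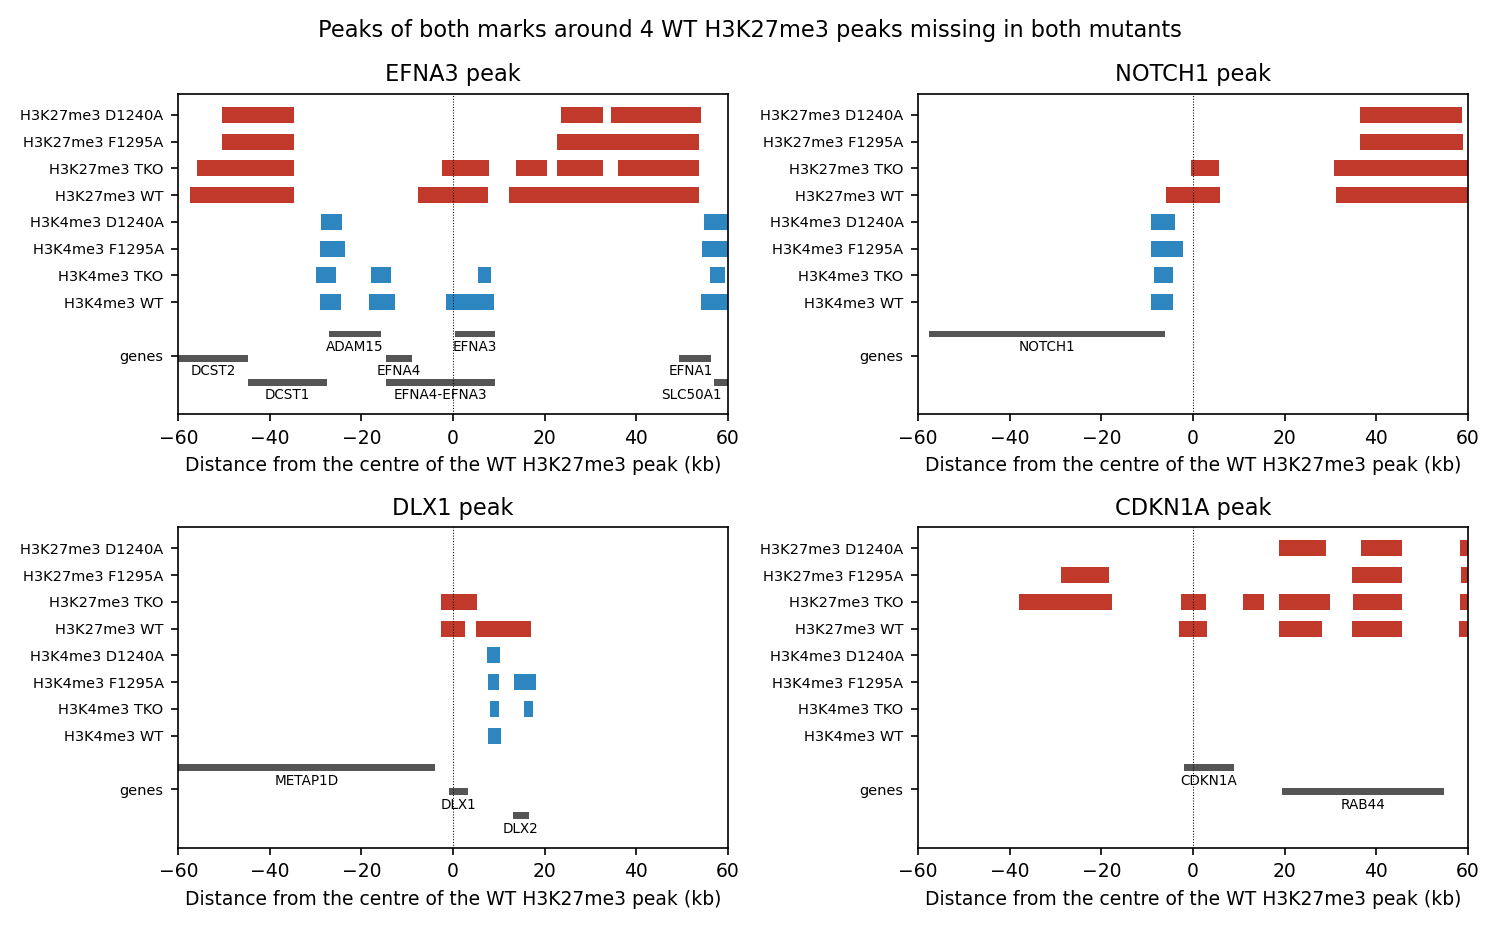
H3K27me3 peaks (red) and H3K4me3 peaks (blue) of each form and protein-coding gene records (grey) by distance in kb from the centre of the WT region at EFNA3, NOTCH1, DLX1 and CDKN1A; bars end at the window border of 60 kb. At each centre the mutant H3K27me3 rows are empty, while H3K4me3 is present in all forms beside NOTCH1 and DLX2, in TKO and WT at EFNA3, and in no form at CDKN1A.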

How the data were processed

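ChIPmentation of TKO cells gave H3K27me3 and H3K4me3 profiles. The data were 8 deposited SEACR-type peak lists, each with the highest signal (coverage) per peak and a total score, the signal summed over the peak, as the authors deposited them on an unstated scale. Per the submitters' processing notes, Trimmomatic 0.36, FastQC 0.11.4, Bowtie2 2.4.5, SEACR 1.3 and GRCh38 were used. The SEACR mode, its control and its threshold are unknown here. H3K27me3 heights are multiples of 0.5, and how both samples of a form were combined is not stated. Read depth per sample is unknown.

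Overlaps of at least 1 bp, distances and exact binomial intervals came from scripts in Python 3.11.15 (pandas 2.3.3, scipy 1.17.1, numpy 2.4.6, matplotlib 3.10.9), tested on simulated data. Genes were 19974 protein-coding RefSeq records of GRCh38.p14 on chromosomes 1 to 22 and X. All 723 entries of the 17 gene lists matched. Genes counted as marked had a peak no more than 1 kb from an end of the record. Named were up to 5 genes per list, those at the 10 regions with the highest total signal and the 6 widest, up to 8 per H3K4me3 difference, and those nearest to and farthest from a mutant peak. Some genes that the rule names are summarised only or are not reported here. The members and lists were chosen with earlier results of these data known. With 1 list per form and mark, no test between forms was possible and no p-values are given. The alternatives changed the overlap, the width limit, the strength of peaks, list length, the gene window and the H3K4me3 window.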

Additional observations from a re-analysis of the deposited data

How the results depend on the processing

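The number of regions, the share at gene ends, the 4 H3K4me3 shares and the median distance to a mutant peak were recomputed under each alternative, 87 values in all, of which 49 stayed within the interval of the reported value or, for counts and distances, within 1.5 times it. Other overlaps, width limits and leaving out part of chromosome 1 changed none beyond that. The strength of peaks and the length of lists changed most. Keeping the stronger 50% of the WT list by total signal left 179 regions, with 48.0% at gene ends and H3K4me3 in 3.91% (D1240A), 5.59% (F1295A), 3.35% (TKO) and 5.03% (WT). By highest signal it left 285, with 39.6% at gene ends, H3K4me3 in 6.32%, 7.37%, 5.61% and 7.02% in the same order, and a median distance of 24.6 kb. Equal list lengths by total signal left 53 regions, 41.5% at gene ends, a distance of 20.7 kb and H3K4me3 in 0% (D1240A), 0% (F1295A) and 1.89% (WT). Equal lengths by highest signal left 153, with 27.5%, 15.3 kb and H3K4me3 in 5.23% (D1240A), 5.23% (F1295A), 4.58% (TKO) and 5.88% (WT). Asking for a mean signal at or above the lowest 1% of both mutant lists left 640, with 35.6% at gene ends and H3K4me3 in 4.06%, 5.63%, 3.44% and 5%. Fewer peaks enter under these alternatives by construction, and the cause of the other shifts was not tested. A gene window of 2.5 kb gave 37.7% and whole records 60.3% at genes. Counting H3K4me3 within 1 kb gave 3.75% (D1240A), 5% (F1295A), 3.08% (TKO) and 4.50% (WT). Of 34 list counts under wider gene windows 13 moved by over 1.5 times. No replicate could be left out, since both samples of a form share a list. No paired analysis was possible because the deposited lists hold no value of a single H3K27me3 replicate. The ranking by highest signal and the part of chromosome 1 were chosen after seeing the data. Unknown read depth and threshold limit every count of missing regions.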

Other observations

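With missing regions within 100 kb of each other joined, 649 of the 1200 stood in 267 runs of 2 or more, a count that was not set against other WT peaks. The longest, of 8 regions over 296 kb of chromosome 17 (chr17:43539685-43836002), lay within 1 kb of gene ends of ETV4, an ETS factor gene, the phosphatase gene DUSP3, DHX8, MPP3 and CFAP97D1. A run of 6 on the same chromosome (chr17:41497788-41738377) lay at KRT9 and KRT13, and 6 regions over 214 kb of chromosome 22 lay near IFT27. The nearest other WT peak, of any width, was itself a missing region for 457 of the 1200 (38.1%). The missing regions are 1200 of the 3790 WT peaks of any width, and the difference in shares was not tested. For 607 (50.6%) the nearest other WT peak was met by a mutant peak. Missing regions held 11 of the 1560 RefSeq microRNA hairpins, among them MIR345, MIR649 and MIR1287.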
